A study of Mus musculus with 2 samples.

Results

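The genes described here encode the proteins that move calcium out of the cytosol in adult mouse cerebellum: the plasma membrane calcium ATPases (PMCA, Atp2b1 to Atp2b4), the endoplasmic reticulum calcium ATPases SERCA2 (Atp2a2) and SERCA3 (Atp2a3), and the sodium-calcium exchangers NCX1 to NCX3 (Slc8a1 to Slc8a3). The 9 genes were chosen by name and matched by Ensembl identifier, and all 9 were found among the 43346 genes of the deposited tables. RNA came from the cerebellum of C57BL/6J mice aged 8 weeks, from littermates of both sexes that were pooled. Polyadenylated RNA was sequenced in 2 libraries, replicates 1 and 2, of 1 group, which carry the same donor record. The spread between them may therefore not measure the spread between animals. There was no second condition, and no test between conditions was made.

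PMCA pumps bind calmodulin at their cytosolic tail and extrude calcium with high affinity. SERCA pumps refill the endoplasmic reticulum, the store that inositol trisphosphate receptors open in Purkinje cells, and sodium-calcium exchangers remove calcium with lower affinity and higher turnover by using the sodium gradient. Transcripts of the PMCA genes are spliced at site A, which lies in the first cytosolic loop near a lipid-binding region, and at site C, which lies within the calmodulin-binding domain. Skipping at site C gives the b forms, which keep the whole calmodulin-binding domain, and inclusion gives the a forms or other forms according to the length of insert, so that inclusion is not the share of a forms.

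Expected counts on genes summed to 79771873 in replicate 1 and 80281011 in replicate 2. All markers of granule neurons (6 of 6), Purkinje neurons (5 of 5), molecular layer interneurons (4 of 4), Bergmann glia and astrocytes (4 of 4) and oligodendrocytes (3 of 3) were at 10 TPM or more in both libraries. Summed markers of heart and skeletal muscle stood at 5.71 and 4.68 TPM, with the muscle creatine kinase gene Ckm at 0.08 and 0.04 TPM, and summed platelet and leukocyte markers at 3.11 and 3.67 TPM. The forebrain marker Drd1 averaged 0.205 TPM, while Nrgn, which is in the same list, averaged 36.2 TPM. In contigs of reads assembled on mm9, the strand opposite to the gene held 0.00568% (Atp2b3) to 0.539% (Atp2a3) of the signal over the gene span in 8 of the 9 genes, and Slc8a1 was not analysed here in that table.

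All 9 genes were expressed at 10 TPM or more (TPM, a measure of transcripts that is per length) in both libraries, a level that 40.01% of 21474 protein-coding genes reached. Atp2a2 was the highest at 313 ± 35.9 TPM (SD, n = 2) and Atp2b4 the lowest at 12.4 ± 0.806 TPM. By mean level the order was Atp2a2, Atp2b2, Atp2b3, Atp2a3, Slc8a2, Atp2b1, Slc8a3, Slc8a1 and Atp2b4. The ranges of the 2 libraries overlapped between Atp2b3 and Atp2a3, between Atp2a3 and Slc8a2, and between Slc8a1 and Atp2b4, so these neighbours were not separated by the spread. In bulk tissue, fewer cells of a type and less RNA per cell cannot be told apart.

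**Figure D1:**
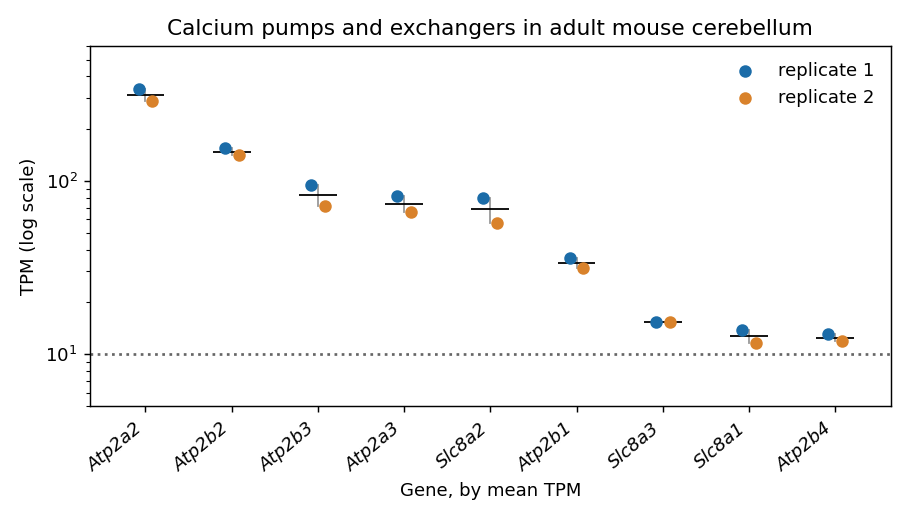
TPM of the 9 genes on a log axis, 1 point per library, with the mean as a horizontal bar and the line of 10 TPM dotted. The genes fall between 11.5 TPM (Slc8a1, replicate 2) and 338 TPM (Atp2a2, replicate 1), and replicate 1 is above replicate 2 in 8 of 9 genes.

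Among the plasma membrane pumps, Atp2b2 led. This gene (PMCA2, chr6:113743831-114042613 on mm10, minus strand), whose loss causes deafness and ataxia in mice, had 153.75 TPM in replicate 1 and 140.24 TPM in replicate 2, and stood above 96.3% of protein-coding genes. Atp2b3 (PMCA3, chrX:73503086-73571005, plus strand), a pump known mainly from brain, had 94.44 and 71.86 TPM. Atp2b1 (PMCA1, chr10:98914406-99026143, plus strand), the pump present in most tissues, had 35.77 and 31.31 TPM. Atp2b4 (PMCA4, chr1:133699457-133801041, minus strand), which is also widely expressed, had 13 and 11.86 TPM. Atp2b2 therefore held 53.4% ± 2.24 of the PMCA transcripts, Atp2b3 29.98% ± 2.58, Atp2b1 12.2% ± 0.156 and Atp2b4 4.51% ± 0.190 (SD, n = 2).

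Among the reticulum pumps, Atp2a2 (SERCA2, chr5:122453513-122502225, minus strand), the pump of most cells and of heart muscle, had 338.29 and 287.52 TPM. Atp2a3 (SERCA3, chr11:72961169-72993044, plus strand), known from blood and endothelial cells and from Purkinje neurons, had 81.86 and 66.00 TPM. The muscle pump Atp2a1 (SERCA1) stood at 0.25 and 0.29 TPM. Atp2a2 held 80.9% ± 0.562 of SERCA transcripts and Atp2a3 19.1% ± 0.578 (SD, n = 2).

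Among the exchangers, Slc8a2 (NCX2, chr7:16129826-16161063, plus strand), which is found mainly in brain, had 80.02 and 56.81 TPM. Slc8a3 (NCX3, chr12:81197915-81333180, minus strand), the form of brain and skeletal muscle, had 15.36 and 15.37 TPM. Slc8a1 (NCX1, chr17:81373105-81738377, minus strand), the exchanger of heart, had 13.84 and 11.52 TPM. Slc8a2 held 70.6% ± 3.81 of the NCX transcripts, Slc8a3 16.2% ± 3.04 and Slc8a1 13.2% ± 0.772 (SD, n = 2). The level of Slc8a1 rests on transcript models of 2877 and 2913 bases in the deposited table. GENCODE M21 has a model of the gene (Slc8a1-204) whose last exon alone is 15963 bases long, and its effect on the TPM was not tested.

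The 2 libraries were compared in counts scaled by TMM to the same depth (CPM), and 8 of the 9 genes were higher in replicate 1, against 49.6% of the 15543 genes with 100 or more counts. The median log2 ratio of replicate 1 over replicate 2 was 0.16 over the 9 genes, which lies above the upper quartile of all genes (0.09), and -0.0015 over all genes. At least 2-fold apart were 0 of the 9 genes and 0.637% of all genes, a background too low to read this count against. Slc8a2 had the largest ratio of replicate 1 over replicate 2 (214 and 160 CPM, log2 ratio 0.43), followed by Atp2b3 (276 and 220 CPM, log2 ratio 0.33). These were the 2 of 9 genes that lay at least 0.32 apart on the log2 scale, against 10.6% of all genes, and both were higher in replicate 1, as 4.97% of all genes were by that margin. With DESeq2 size factors Atp2b3 fell just short of the 0.32 margin, which left 1 of 9. The log2 ratio was 0.21 for Atp2a3, 0.20 for Slc8a1, 0.16 for Atp2a2, 0.12 for Atp2b1, 0.06 for Atp2b2 and 0.03 for Atp2b4. Slc8a3 lay on the other side at -0.07.

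Markers of some cell types moved between the libraries as well. All 6 granule neuron markers were higher in replicate 1, with a median log2 ratio of 0.25, and so were all 5 Purkinje markers, with a median of 0.19. The 3 oligodendrocyte markers were all lower in replicate 1, with a median of -0.33, and so were the 3 vascular markers, with a median of -0.29. Choroid plexus markers summed to 2109.95 TPM in replicate 1 and 771.77 TPM in replicate 2, with a median log2 ratio of 1.39. The part of these shifts in the ratios of the pumps and exchangers was not tested.

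**Figure D2:**
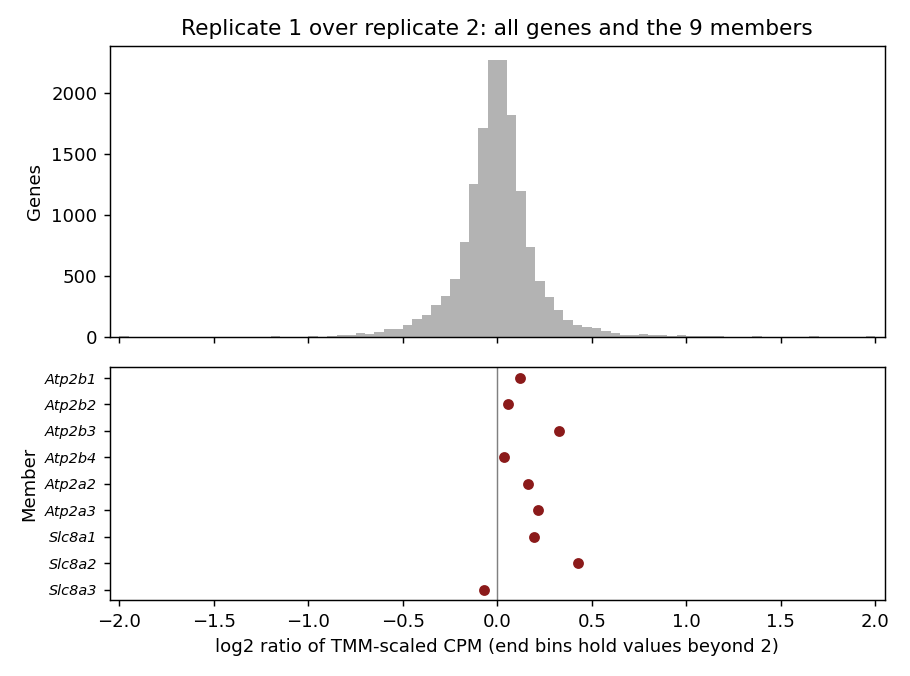
Log2 ratio of replicate 1 over replicate 2 in TMM-scaled CPM, as a histogram of all genes with 100 or more counts (top) and as 1 point per pump or exchanger gene (bottom). Of the 9 points 8 lie right of 0, from 0.03 (Atp2b4) to 0.43 (Slc8a2), and Slc8a3 lies at -0.07.

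Splice forms were read from the junction table of the series, which was made on mm9 and numbers its replicates 1 and 2 without naming the libraries. Inclusion is the mean of the reads over all junctions into and out of the alternative sequence between the flanking exons, minor junctions included, as a percent of that mean plus the reads that skip them. Intervals are 95% Wilson intervals on the reads of both replicates together and cover counting error only.

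At site A the 4 PMCA genes differed widely. Atp2b1 carries a 39-base exon at chr10:98993867-98993905 that was read into by 230 and 235 reads and out of by 288 and 280 reads. With 0 skipping reads, its inclusion was 100% (interval 99.3 to 100%). Taken as 3 over the mean of 516.5 inclusion reads, which is not the Wilson method, a count of 0 allows a skipped share of up to 0.581%. Atp2b3 included its 42-base exon at 86.4% and 89.9% (70 and 51 skipping reads, pooled 88.1%, interval 86.0 to 90.0%). Atp2b4 included its 36-base exon at 76.2% and 60.5% (12 and 17 skipping reads, pooled 69.0%, interval 59.0 to 77.5%), the least certain of these values. Skipping at site A in Atp2b3 and in Atp2b4 was not among the annotated junctions of the table.

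Atp2b2 went the other way. Its site A holds exons of 33, 60 and 42 bases at chr6:113803747-113803779, chr6:113802486-113802545 and chr6:113797110-113797151, and 755 and 826 reads skipped all of them, while 112 and 96 reads led into the site and 132 and 100 out of it. Inclusion was 13.9% and 10.6% (pooled 12.2%, interval 10.8 to 13.8%), so the form without an insert, called z, was the main form. The first exon was entered by 79 and 55 reads from the exon before the site, and the 42-base exon, which alone gives the x form, was entered directly by 30 and 37 reads. Reads joining the 33-base to the 60-base exon numbered 56 and 50, and reads joining the 60-base to the 42-base exon 61 and 34, the links of the w form that holds all 3 exons. A further 25 and 22 reads ran from the 60-base exon straight to the exon after the site.

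The site A exons are printed because their use separates PMCA2 from the other pumps. They are coding sequence of GENCODE M21 (PMCA3 at chrX:73533885-73533926, PMCA4 at chr1:133736616-133736651), and each length is a multiple of 3. The 42-base exons of PMCA2 and PMCA3 are identical at 27 of 42 positions (64.3%).
PMCA1 site A exon: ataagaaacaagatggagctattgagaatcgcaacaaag
PMCA2 site A exon 1: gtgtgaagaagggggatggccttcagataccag
PMCA2 site A exon 2: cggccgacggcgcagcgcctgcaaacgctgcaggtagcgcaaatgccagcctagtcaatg
PMCA2 site A exon 3: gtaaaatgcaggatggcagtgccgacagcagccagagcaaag
PMCA3 site A exon: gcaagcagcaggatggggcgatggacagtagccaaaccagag
PMCA4 site A exon: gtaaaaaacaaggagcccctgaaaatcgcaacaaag

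At site C inclusion exceeded skipping in all 4 genes by the mean of both junctions, and was lowest in Atp2b2. It was 73.9% and 69.9% in Atp2b1 (pooled 72.0%, interval 69.4 to 74.5%) and 80.4% and 78.3% in Atp2b3 (pooled 79.4%, interval 77.4 to 81.3%). In Atp2b4 it was 94.6% and 91.8% on few reads (pooled 93.4%, interval 89.0 to 96.1%). In Atp2b2 it was 50.3% and 55.1% (pooled 52.7%, interval 50.6 to 54.7%), and this value fell to 41.0% with the junction into the exon and came to 60.5% with the junctions out of it. The order of Atp2b2 against Atp2b1 and Atp2b3 was the same with either junction alone. The deposited exon RPKM of the alternative exon was also set against the median exon of the transcript. It gave 28.9% in Atp2b2, 65.1% in Atp2b3 and 23.1% in Atp2b4, which was then the lowest, and none for Atp2b1. In Atp2b2 and Atp2b4 these values follow from the mm9 transcript RPKM of Atp2b2-206 and Atp2b4-201. Exon RPKM thus restates transcript estimates and is not a separate reading of the exon.

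**Figure D3:**
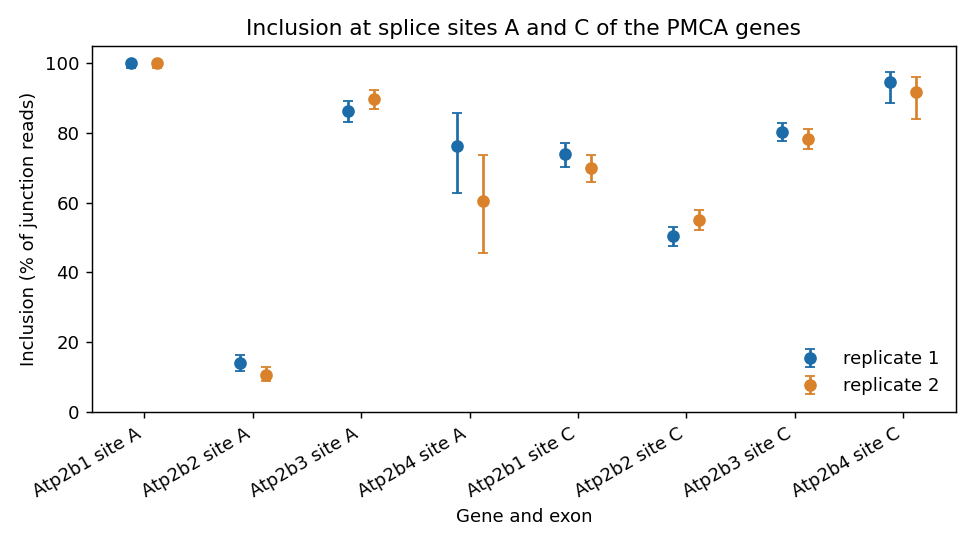
Inclusion of alternative exons at sites A and C of the PMCA genes, in percent of junction reads, 1 point per replicate of the junction table with its 95% Wilson interval. Atp2b2 lies lowest at both sites, at 13.9% and 10.6% for site A and 50.3% and 55.1% for site C.

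The inserts at site C were not uniform, since these exons are left from several donors. In Atp2b1 the whole 154-base exon was joined to the next exon by 432 and 370 reads, which was 54.0% of all reads into the next exon, against 22.5% that skipped the site (167 and 167 reads). Donors inside the exon, after base 87 and after base 152, gave 103 and 67 reads (11.4%) and 93 and 71 reads (11.04%). Of these lengths 87 is a multiple of 3, and 152 and 154 are not, so that they shift the frame of the next exon in 2 ways. None of these exon junctions was in the Ensembl 65 set on mm9, and GENCODE M21 has the 154-base exon in Atp2b1-210.

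In Atp2b3 the same 2 lengths recurred. Its 154-base exon was joined on by 620 and 569 reads (66.9% of reads into the next exon) and the donor after base 87 by 101 and 77 reads (10.02%), with 167 and 173 reads (19.1%) skipping. The exons of PMCA1 and PMCA3 are identical at 98 of 154 positions (63.6%), at 66.7% before the internal donor and 59.7% after it, and both have the letters GT right after base 87. A further acceptor in Atp2b3, which is not in Ensembl 65, took 56 and 56 reads from the exon before the site.

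In Atp2b2 the insert is made of 2 exons. A 172-base exon at chr6:113755217-113755388 was entered by 392 and 386 reads and joined to the next alternative exon by 574 and 676 reads. That exon was left mainly after its base 55, with 707 and 786 reads (52.8% of reads into the last exon), whereas 18 and 22 reads (1.41%) used the end of the annotated 127-base exon. Only 54 and 38 reads (3.25%) joined the 172-base exon straight to the last exon. In M21 the pair is annotated in Atp2b2-206, which is classed as subject to nonsense-mediated decay, and 5 bases of the 127-base exon are coding there.

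Atp2b4 left its site C exon after base 181 with 52 and 38 reads (52.0%, interval 44.6 to 59.3%) and after base 191 with 41 and 29 reads (40.5%, interval 33.4 to 47.9%), and 6 and 7 reads (7.51%) skipped it. The 2 intervals overlap. In the deposited transcript estimates the order differed, with Atp2b4-201, which has the 191-base exon, at 66.5% and 63.6% of the gene's TPM and Atp2b4-203, which has the 181-base exon, at 11.2% and 6.71%.

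**Figure D4:**
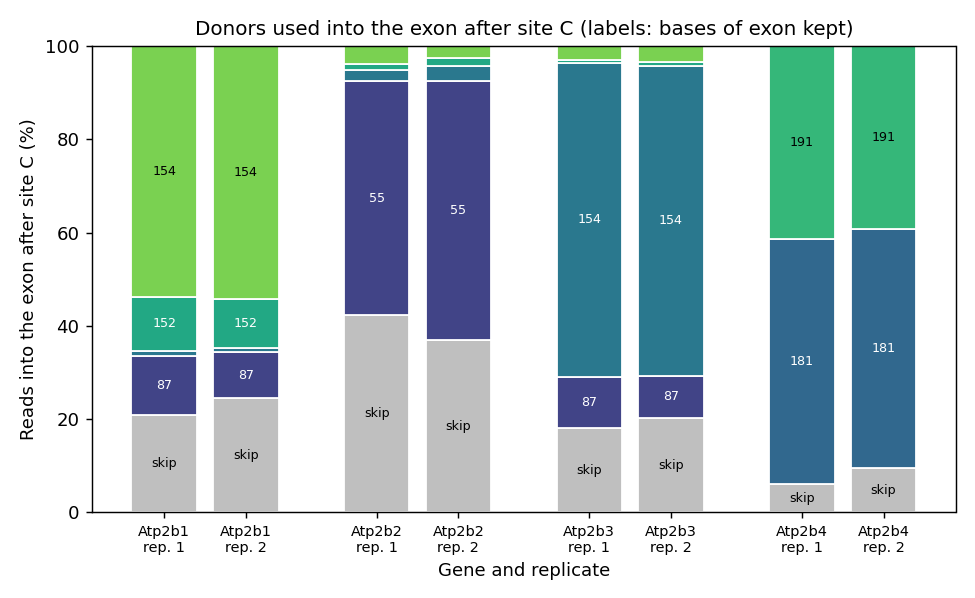
Reads into the exon after site C by the donor they come from, in percent of all such junctions with 10 or more reads, 1 bar per gene and replicate of the junction table. Numbers in the bars are the bases kept of the alternative exon that joins the exon after the site, grey is skipping, and pieces with no number hold under 5% each. In Atp2b2 the number does not count the 172-base exon that comes before it. The 154-base form leads in Atp2b1 and Atp2b3, the 55-base exon leads in Atp2b2, and the bars of a gene look alike in both replicates.

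Coding bases of the site C exons are printed to show where the donors lie. Capitals mark the bases after the first internal donor that more than 30 reads used, at base 87 in PMCA1 (chr10:99019278-99019431) and PMCA3 (chrX:73559864-73560017) and at base 181 in PMCA4 (chr1:133711637-133711822). The PMCA4 exon is printed for its 186 coding bases.
PMCA1 site C exon: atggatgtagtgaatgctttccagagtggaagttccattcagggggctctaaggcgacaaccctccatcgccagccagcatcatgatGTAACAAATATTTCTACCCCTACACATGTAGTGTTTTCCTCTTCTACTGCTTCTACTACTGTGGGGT
PMCA2 site C exon 1: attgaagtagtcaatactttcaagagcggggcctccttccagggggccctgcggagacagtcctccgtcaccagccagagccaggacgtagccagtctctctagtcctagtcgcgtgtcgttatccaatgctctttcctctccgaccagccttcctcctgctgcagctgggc
PMCA3 site C exon: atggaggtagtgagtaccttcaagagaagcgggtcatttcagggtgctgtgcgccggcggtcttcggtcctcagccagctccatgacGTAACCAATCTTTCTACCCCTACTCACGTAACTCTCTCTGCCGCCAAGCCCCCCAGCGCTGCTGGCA
PMCA4 site C exon: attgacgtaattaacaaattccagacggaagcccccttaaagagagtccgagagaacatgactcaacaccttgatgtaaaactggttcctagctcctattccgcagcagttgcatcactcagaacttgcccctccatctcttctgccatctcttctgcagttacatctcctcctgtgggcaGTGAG

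Atp2b1 and Atp2b2 also start from more than 1 first exon. In Atp2b2 the 287-base first exon of Atp2b2-201 was joined to the first coding exon by 589 and 459 reads (59.8% and 57.2%), and the 95-base exon of the transcripts that start farther upstream by 386 and 330 reads (39.2% and 41.1%). The deposited mm10 estimates gave Atp2b2-201 57.3% and 57.9% of the gene's TPM. The deposited mm9 transcript RPKM gave 9.50 and 0.251 for Atp2b2-201 and 2.33 and 9.92 for Atp2b2-203, a reversal between replicates that the first-exon junction reads did not show. In Atp2b1, 397 and 280 reads (89.0% and 90.0%) came from a first exon not in Ensembl 65 and 46 and 27 reads (10.3% and 8.68%) from the annotated 220-base one. The donors of these 2 exons lie 578 bases apart, as do those of Atp2b1-207 and Atp2b1-201 in M21. In Atp2b3 1 first exon gave 96.0% and 94.2% of such reads (698 and 507), and in Atp2b4 the 405-base exon gave 79.0% and 85.9% (64 and 55 reads).

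The 250 bases before the start of Atp2b2-201 are printed because most PMCA2 reads come from that first exon (RefSeq, GRCm38.p6, chr6:113891540-113891789, minus strand). The letters GGGCGG, searched on both strands, occur there 1 time, shown in capitals as the reverse complement, and in 32.7% of 32851 promoters of this length. TATAAA and CACGTG do not occur in this window, and are in 12.4% and 6.02% of promoters. The GC content was 55.6%, against 78.4% and 80.8% before the 2 starts of Atp2b1 and a median of 52.4% over all promoters.
PMCA2 promoter: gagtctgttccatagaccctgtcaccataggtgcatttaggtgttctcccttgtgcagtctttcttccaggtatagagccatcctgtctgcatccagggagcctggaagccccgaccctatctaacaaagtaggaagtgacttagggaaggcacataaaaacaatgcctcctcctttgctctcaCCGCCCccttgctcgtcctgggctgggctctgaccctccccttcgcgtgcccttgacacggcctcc

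The reticulum pumps vary at their tails. SERCA2 differs at its tail between the 2a form of heart muscle, which uses a donor inside the last coding exon, and the 2b form of other tissues, which reads through it. Into the last exon of Atp2a2, 2862 and 2718 reads came from the end of the long 1534-base exon, and 16 and 32 reads (0.556% and 1.16%) from the inner donor. A further 18 and 28 reads joined the inner donor to an acceptor 83 bases before the end of that exon, so that the inner donor took 1.66% of these reads in all (interval 1.36 to 2.02%). The deposited transcript estimates gave another picture, with 41.4% and 39.95% of the gene's TPM on Atp2a2-202, which in M21 uses the inner donor, and 58.5% and 59.98% on Atp2a2-201. The deposited lengths of both transcripts (4314 and 4491 bases) differ from those in M21 (3984 and 4486 bases), so the models behind the estimates are not exactly those of M21, and the cause of the difference was not tested.

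Atp2a3 mostly skipped the 73-base exon before its last exon, which lies at chr11:72989475-72989547 and shifts the frame. The skipping junction had 359 and 289 reads, the junctions in 85 and 70, and the junctions out 41 and 48, of which the 73-base exon's own junctions had 84 and 70 in and 38 and 46 out. Inclusion was 14.9% and 16.95% (pooled 15.8%, interval 13.4 to 18.6%), and Atp2a3-203, which lacks the exon, held 73.04% and 74.01% of the gene's TPM. A short noncoding transcript of the gene, Atp2a3-205, was given 13.9% and 13.1%.
SERCA3 short exon: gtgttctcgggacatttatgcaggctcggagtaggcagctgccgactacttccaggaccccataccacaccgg

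The exchangers vary in the large cytosolic loop that binds regulatory calcium, where exons A and B exclude each other and are followed by a set of small cassette exons. Slc8a1 took exon A, the choice known from excitable tissues, in 63 and 79 reads and exon B in 2 and 3 reads, so A held 96.6% (interval 92.3 to 98.5%). Slc8a3 was the opposite, with 112 and 135 reads into its exon B, 98.8% of all (interval 96.5 to 99.6%). These exons are printed for the contrast between the genes, with NCX1 exon A at chr17:81445487-81445593 and NCX3 exon B at chr12:81214066-81214169.
NCX1 exon A: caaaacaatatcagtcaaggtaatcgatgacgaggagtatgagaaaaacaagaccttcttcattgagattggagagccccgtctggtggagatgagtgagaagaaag
NCX3 exon B: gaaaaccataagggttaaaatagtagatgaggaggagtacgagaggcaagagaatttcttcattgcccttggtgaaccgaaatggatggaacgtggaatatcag

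After exon A, Slc8a1 skipped exon C more often than it used it, with 26 and 23 reads straight to exon D against 15 and 16 into the sequence between them, of which 12 and 16 into exon C itself, and 11 and 13 out of it. Inclusion of exon C was 33.3% and 38.7% (pooled 35.9%, interval 26.1 to 47.1%), and that of exon F 47.7% and 39.0% (pooled 42.9%, interval 32.2 to 54.2%). Another 56 and 60 reads, the most on any junction of this region, joined points 4 bases past exon A and 14 bases before the exon that follows the cassette, which sum to the 18 bases of exon D. Whether these reads hold exon D was not tested, so the form that carries exon D alone has no firm count. These reads pass over exons C and F, but their ends do not match the exon ends, so neither inclusion value counts them. Counted as skipping, they would lower both values, and the intervals do not cover this. In the deposited estimates Slc8a1-202 held 85.3% and 82.9% of the gene's TPM. Its deposited length is 2877 bases, against 3180 bases in M21, where it has exons A, C, D, E and F. The model behind the estimate is therefore not that of M21, and which of these exons it holds was not tested. These shares are thus not a reading of the form with all of these exons.

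Slc8a2 and Slc8a3 have an 18-base exon between exons of 104 and 125 bases, which was nearly always used in Slc8a2 and less often in Slc8a3. Which small exon of Slc8a1 it corresponds to was not tested, and exon D shares 7 of 18 positions with that of Slc8a3. In Slc8a2 402 and 332 reads entered it, 360 and 285 left it and 8 and 3 skipped it (pooled 98.4%, interval 97.2 to 99.1%). In Slc8a3 44 and 35 reads led in, 52 and 34 led out and 50 and 65 skipped it, with inclusion of 48.98% and 34.7% (pooled 41.8%, interval 35.1 to 48.7%). The deposited estimates put 30.9% and 24.8% of Slc8a3 TPM on Slc8a3-201, which holds the exon. The exons lie at chr7:16150574-16150591 and chr12:81209454-81209471 and share 9 of 18 positions.
NCX1 exon C: ccctgttgttgaatgagcttg
NCX1 exon D: gtggcttcacattaacag
NCX1 exon F: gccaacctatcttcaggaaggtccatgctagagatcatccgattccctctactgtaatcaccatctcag
NCX2 short exon: ctctgctactcaaccaag
NCX3 short exon: cgctcctgttatctccag

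**Figure D5:**
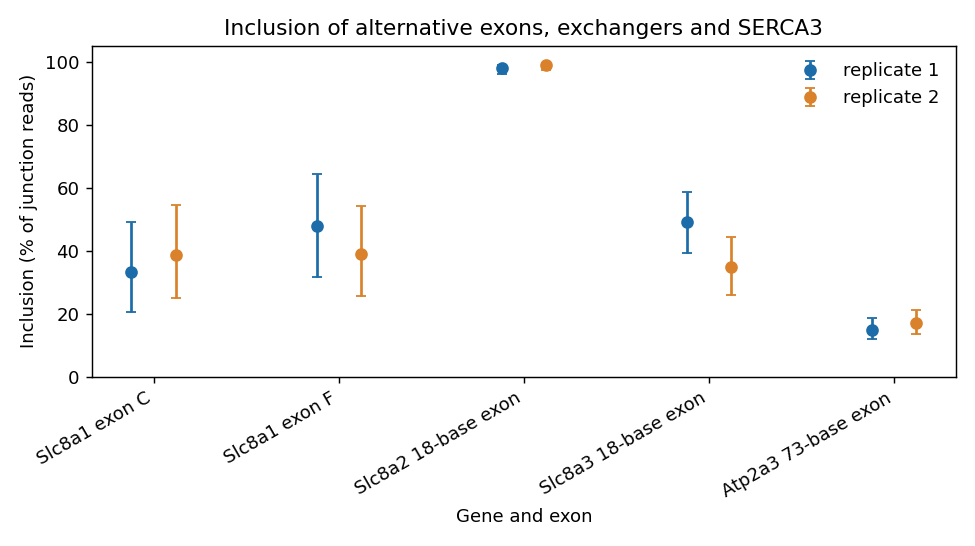
Inclusion of alternative exons in the exchanger genes and Atp2a3, in percent of junction reads, 1 point per replicate of the junction table with its 95% Wilson interval. Slc8a2 lies near the top at 97.9% and 99.04%, Atp2a3 lowest at 14.9% and 16.95%, and the wide intervals of Slc8a1 reflect few reads. The Slc8a1 values leave out 56 and 60 reads that pass over exons C and F without matching the exon ends.

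Genes that work with these transporters were measured from a list of 31, of which 30 were found. Of these, 20 were at 10 TPM or more in both libraries, a level that 40.01% of protein-coding genes reached. Of the calmodulin genes, whose shared product activates PMCA, Calm2 averaged 1276 ± 18.97 and Calm3 921 ± 46.1 TPM (SD, n = 2). Nptn and Bsg, which encode the PMCA partners neuroplastin and basigin, averaged 894 ± 111 and 814 ± 21.02 TPM. The SERCA regulators were low, with Mrln (myoregulin) at 9.49 ± 1.68, Sln (sarcolipin) at 2.88 ± 0.453 and Pln (phospholamban) at 0.620 ± 0.0141 TPM. Atp2c1, the Golgi pump, averaged 69.9 ± 1.63 TPM, and its relative Atp2c2 0.195 ± 0.0354 TPM.

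Of the potassium-dependent and mitochondrial exchangers 2 of 6 passed 10 TPM in both libraries, against 40.01% of all protein-coding genes. They were Slc24a2 at 53.3 ± 0.75 and Slc24a3 at 37.8 ± 2.49 TPM, and Slc24a1, known from rod photoreceptors, was lowest at 0.02 TPM in each library. Of the mitochondrial uniporter genes, counted together with Letm1 (30.9 ± 0.325 TPM), which is not a uniporter subunit, 6 of 7 passed. The essential subunit gene Smdt1 led at 205 ± 6.01 TPM, with Mcub, a dominant-negative subunit, at 1.43 ± 0.424 TPM. All 6 genes of store-operated entry passed, from the inhibitor Saraf at 145 ± 1.07 and the sensor Stim1 at 39.3 ± 2.91 to the channel gene Orai1 at 13.6 ± 0.0141 TPM.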

How the data were processed

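Polyadenylated RNA of 2 cerebellum libraries was analysed from deposited tables. The authors deposited expected counts, which are estimated and need not be whole, TPM and FPKM per gene, and these with percent of the gene's TPM per transcript, on mm10 with GENCODE M4, per the file headers and index. On mm9 with Ensembl 65, the authors deposited RPKM per gene, transcript and exon, junction read counts, a contig signal and an irreproducibility fraction per junction. The aligner is not given in the sources used here.

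Expected counts were rounded and scaled by TMM in edgeR 4.0.16 (R 4.3.3, prior count 2, 100 or more counts). DESeq2 1.42.0 size factors were an alternative. The ratio script was tested on simulated data. Junctions with an end within 10 bases of a flanking exon's end were left out of inclusion, a choice made after seeing the data. Assemblies were joined only by identifier and exon length. Sequences came from GENCODE M21 and RefSeq, and 32 of 38 deposited transcripts have their M21 length. Related genes were named by a rule: the highest 2 and the lowest of each list, or all of a list of 3 or fewer. A few of these are not reported here. The genes and lists were chosen with earlier results of these data known.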

Additional observations from a re-analysis of the deposited data

How the results depend on the processing

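No paired analysis was possible because the 2 libraries form 1 group. Among alternatives that keep both replicates 75 values stayed within the replicate spread (counts: within 1.5 times) and 30 moved. Some of the 75 could not move. Within a library, family shares in FPKM restate those in TPM. Atp2b1 and Slc8a2 have 1 transcript each, and site A of Atp2b1 has 0 skipping reads. The count of 75 is therefore not a measure of stability. Of the 9 genes, 6 reached 10 FPKM, 6 reached 20 TPM and 2 reached 10 RPKM on mm9 in both replicates. These units are on different scales, with Atp2a2 at 338 TPM and 215 FPKM in replicate 1. The share of all protein-coding genes at these 3 cut-offs was not computed, so the counts are not read as a loss of expression. In expected counts the share of Atp2b2 was 59.1% and that of Atp2a2 82.5%, and in mm9 RPKM the share of Atp2a2 was 78.2%. Genes at least 2-fold apart numbered 37 by TPM + 1, 1632 with no count minimum and 635 at 10 counts, and 1653 genes, 2 of them pumps or exchangers, were 0.32 apart on the log2 scale (only Slc8a2, 1 gene, of the 9 with DESeq2 size factors).

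Inclusion at site C by the upstream or the downstream junction alone was 62.8% or 77.6% in Atp2b1 and 41.0% or 60.5% in Atp2b2, and 77.6% or 80.9% in Atp2b3. Exon RPKM gave 0.954% (Atp2b2), 100% (Atp2b3) and 100% (Atp2b4) at site A, and 28.9% (Atp2b2), 65.1% (Atp2b3) and 23.1% (Atp2b4) at site C, and no value for Atp2b1 site C. The exon RPKM values restate the mm9 transcript estimates. Skipping at site A is not annotated in Atp2b3 and Atp2b4, so every annotated form across the site holds the exon and the 100% was fixed in advance. The cause of the difference between the upstream and downstream junctions was not tested. Of the 33 values for single exons and transcripts that keep both replicates 9 moved. The other 60 values leave out 1 replicate, and since each of 2 replicates lies within their SD of the mean, they say nothing of stability. No inclusion value moved by more than the spread between replicates when junctions ending within 10 bases of a flanking exon's end were kept, an alternative added after seeing the data. Skipping reads were still counted only where both ends matched exactly. This alternative therefore could not take in the 56 and 60 Slc8a1 reads that pass over exons C and F. Junction reads were fewest in Slc8a1 (573 and 583), Slc8a3 (650 and 833) and Atp2b4 (1670 and 1449).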
